A study of Danio rerio with 4 samples.

Results

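A set of 9 genes encoding transcription factors of the cranial mesenchyme was followed through nuclear RNA libraries from the heads of zebrafish larvae with and without oncogenic NRas in their melanocytes. The set was taken by symbol, ignoring case and a final paralog letter, and holds HIC1, TCF21, twist1a, twist1b, twist2, the PRRX1 genes, FOXC1 and foxc1b, 9 of the 31952 genes in the count table. HIC1 was chosen by its own lower counts in NRas+ than in control in these libraries. The other members were added around it by their biology, with earlier results of these data known. The values of HIC1 between conditions are therefore a description and carry no test, and nothing is read from the number of members called.

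Control and NRas+ larvae came from the same kind of cross. A line with mpo:BirA-Citrine and the bactin:Avi-Cerulean-Rangap transgene (allele ox128) was crossed to a line with kita:LexPR-Cerulean and the responder PcrysB:ECFP-LexOP:mCherry-NRas (allele ox130). The study picked embryos with mCherry-NRas in melanocytes for profiling, and does not state how the profiled controls were genotyped. In this cross a neutrophil promoter (mpo, also called mpx) drives the biotin ligase BirA, which tags nuclei through the ubiquitous Avi-Rangap protein, and the kita promoter drives LexPR, which switches on mCherry-NRas in melanocytes once mifepristone is present. The 2 NRas+ libraries came from larvae kept in 1 µM mifepristone from 24 hours post-fertilisation (hpf) and the 2 control libraries from untreated larvae, all taken at 5 days post-fertilisation (dpf), each from pooled heads. Drug and oncogene cannot be told apart here, and the allele number that the labels give for the kita line is the one the study gives its mitfa line.

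Counts on genes totalled between 30619195 and 42365244 per library. Although the nuclei were purified as those of neutrophils, a list of 24 neutrophil genes took between 0.00617% and 0.0105% of the counts, with the lysozyme gene lyz between 3.0 and 12.6 CPM (counts brought to a common library size after TMM scaling, edgeR's trimmed mean of M-values), whereas 53 skeletal muscle genes took 23.1% to 32.4% in controls and 45.2% to 45.7% in NRas+. The 26 tested epidermis markers had a median log2 fold change (NRas+ minus control) of 1.03, or 0.47 without NRas+ 1, with 5 higher past the threshold used below. Their list nonetheless overlapped in its sum, at 5198 and 2310 CPM in controls and 7920 and 3450 CPM in NRas+. Of its most abundant genes, krt4 and krt91 overlapped between conditions and krt8 was lower in both NRas+ libraries than in either control. The 5 past the threshold were krt93, krt95, krt97, cldne and PKP1. Of these, krt93 had 0 and 0.04 CPM in controls and 355 and 248 CPM in NRas+. Of the 26 tested, 21 had a log2 fold change above 0 and 5 below. The part of muscle and epidermis in the levels given here was not tested. The 9 factors are therefore read in a mixed head preparation. In bulk RNA of this kind, fewer cells of a type and less RNA per cell cannot be told apart. The marker lists were chosen with earlier results of these data known, so calls within them are a description.

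The cranial mesenchyme is the loose tissue, derived from neural crest and head mesoderm, that forms cartilage, bone, dermis, tendon and the connective tissue of the head. Its identity is held by a small number of transcription factors. Twist1, Twist2 and Tcf21 are basic helix-loop-helix (bHLH) proteins that bind DNA as dimers, often with E proteins, and Id proteins sequester those partners. The paired-related homeodomain factor Prrx1 and the forkhead factor Foxc1 act in mesenchyme of the face, skull and eye, and Hic1 is a zinc finger repressor that in mice marks fibroblast-like mesenchymal progenitors.

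All 9 members had enough counts to be tested, and the fitted level of every member was lower in NRas+ than in control. In 8 of the 9, both NRas+ libraries lay below both controls, twist1b being the exception. Over all 20099 genes tested, 52.1% had a lower fitted level and 21.8% had both NRas+ libraries below both controls. By the quasi-likelihood test of edgeR, with a threshold of 0.05 on the adjusted p throughout, the 1 member called lower was HIC1 and no member was called higher, against 0.0398% and 0.129% of all genes. DESeq2 likewise called HIC1 alone, against 0.79% of genes lower and 1.26% higher. At an unadjusted p under 0.05, 5 members were lower (HIC1, twist1a, twist2, FOXC1 and foxc1b) and none was higher, against 6.13% and 5.17% of all genes. No member had both NRas+ libraries above both controls, which 20.5% of all genes did. The median log2 fold change, NRas+ minus control, was -0.96 over the members and -0.04 over all genes tested. Without control 2 the median of the members was -0.60 while that of all genes was 0.15, and with library totals in place of TMM scaling these medians were -1.31 and -0.40.

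**Figure D1:**
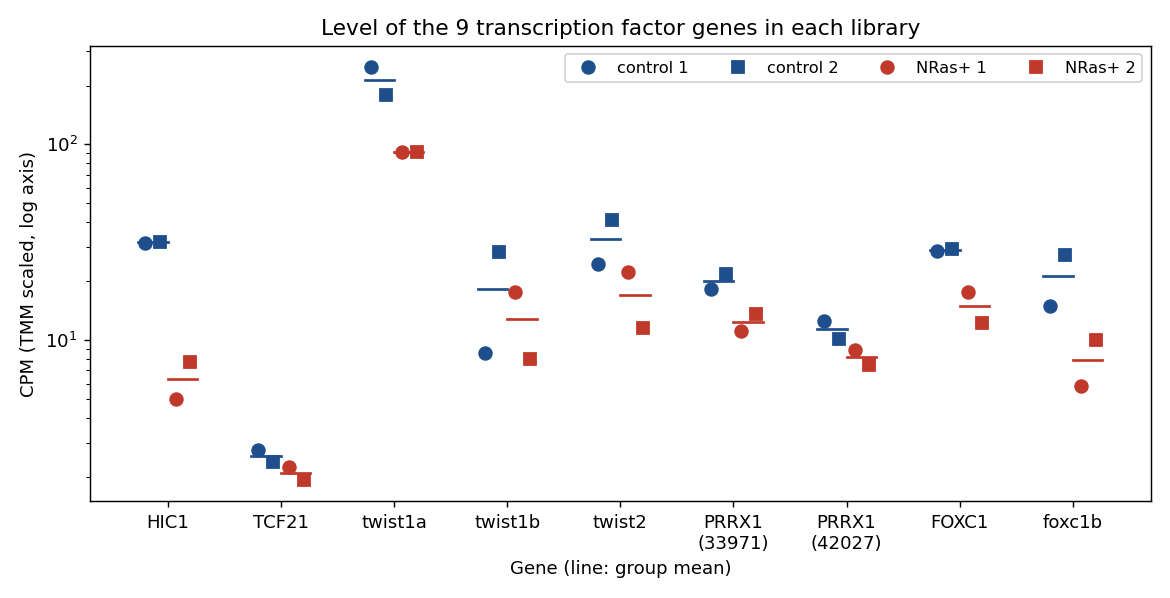
Level of each of the 9 genes in CPM (TMM scaled, log axis) in the 2 control (blue) and 2 NRas+ (red) libraries, with a line at each group mean. HIC1 lay at 31.5 and 31.7 CPM in the controls and at 5.02 and 7.70 in NRas+, while twist1b overlapped between conditions.

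HIC1 (ENSDARG00000055493), the zinc finger repressor named for its hypermethylation in human cancers, was the member with the largest difference. Its counts were 846 in control 1 and 1731 in control 2, against 183 in NRas+ 1 and 293 in NRas+ 2. After scaling these were 31.5 and 31.7 CPM in the controls and 5.02 and 7.70 CPM in NRas+. On this scale the controls were nearly equal and the groups were far from touching. That near equality depends on the TMM factors, which were 0.878 for control 1 and 1.405 for control 2. The group means were 31.6 ± 0.142 and 6.36 ± 1.90 CPM (SD over 2 libraries each). HIC1 was thus 4.96-fold lower in NRas+, a fitted log2 change of -2.31 (SE 0.45). The log2 fold change stayed between -2.62 and -2.03 with 1 library left out, whereas the call was lost without control 1, without NRas+ 1 and without NRas+ 2. Of 20099 genes tested, HIC1 had the 390th lowest log2 fold change.

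The gene hic1l (ENSDARG00000045660), a zebrafish relative of HIC1 that lies outside the set, did not share this pattern. It had 7.82 and 17.1 CPM in the controls and 12.8 and 13.9 CPM in NRas+, both NRas+ values falling between the controls, and a log2 change of 0.06 (SE 0.48, 95% interval -0.94 to 1.06). Of the counts on these relatives together, HIC1 took 80.1% (Wilson 95% interval 77.6 to 82.4) in control 1 and 64.9% (63.0 to 66.7) in control 2, and 28.2% (24.8 to 31.7) in NRas+ 1 and 35.6% (32.4 to 38.9) in NRas+ 2. HIC1 thus held the larger part in both controls and the smaller part in both NRas+ libraries. A share of this kind does not depend on the scaling of the libraries, its interval covers counting error only, and hic1l was looked up after the values of HIC1 had been seen. HIC2 (ENSDARG00000100497), another relative, had between 1.01 and 3.61 CPM and overlapped between conditions.

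Of the bHLH members, twist1a (ENSDARG00000030402), a regulator of cranial neural crest mesenchyme whose mammalian counterpart is mutated in a craniosynostosis syndrome, had the most counts. It took between 48.1% and 63.8% of all counts on the 9 genes in a library, a share that also depends on transcript lengths, which were not used here. Its level was 249.8 CPM in control 1, 178 in control 2, 91.7 in NRas+ 1 and 91.7 in NRas+ 2. The NRas+ libraries were level with each other, and the lower of the controls stood well above them. The log2 fold change was -1.22 (SE 0.39, 95% interval -2.02 to -0.42), and its adjusted p, 0.204 in edgeR, did not pass. Without control 2 it passed, at -1.42 (adjusted p = 0.0371 from the same test), and without control 1 it was -0.95.

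The paralog twist1b (ENSDARG00000076010) did not follow twist1a. It had 8.60 CPM in control 1 and 28.1 in control 2, against 17.6 in NRas+ 1 and 8.04 in NRas+ 2. Its spread within each condition was larger than the difference between them. The log2 fold change of -0.56 (SE 0.53, 95% interval -1.66 to 0.55) turned to 0.60 without control 2, so its direction rested on that library. The fish-specific relative twist3 (ENSDARG00000019646), outside the set, had 18.5 and 12.3 CPM in controls and 8.28 and 8.15 CPM in NRas+, so that its log2 change was -0.89 (SE 0.48; adjusted p = 0.51, edgeR).

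The gene twist2 (ENSDARG00000078266), known from mammals as a regulator of dermal fibroblasts, had 24.6 CPM in control 1, 41.2 in control 2, 22.4 in NRas+ 1 and 11.5 in NRas+ 2. Control 1 and NRas+ 1 lay close together, and the separation of the groups came from the other libraries. The log2 fold change was -0.97 (SE 0.44, 95% interval -1.89 to -0.05, adjusted p = 0.411 from edgeR's test) and moved between -1.51 without NRas+ 1 and -0.51 without control 2. TCF21 (ENSDARG00000036869), which in vertebrates marks precursors of head muscle, epicardium and some fibroblasts, was the least counted member, with 74, 130, 82 and 73 counts in control 1, control 2, NRas+ 1 and NRas+ 2. These were 2.75 and 2.38 CPM in the controls and 2.25 and 1.92 CPM in NRas+. Its log2 fold change of -0.28 had a 95% interval from -2.07 to 1.51, so neither a fall nor a rise of 2-fold could be told from no change at this depth.

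Both PRRX1 genes, which the table of names does not tell apart by paralog letter, were lower in NRas+ by less than the forkhead members. Prrx1 is a homeodomain factor of limb and craniofacial mesenchyme and is used as a fibroblast marker in mammals. The first gene (ENSDARG00000033971) had 18.3 and 21.8 CPM in controls and 11.1 and 13.6 CPM in NRas+, a log2 fold change of -0.70 (SE 0.43, 95% interval -1.60 to 0.20). The second (ENSDARG00000042027) had 12.6 and 10.2 CPM in controls and 8.91 and 7.44 CPM in NRas+, a log2 fold change of -0.47 (SE 0.49, 95% interval -1.50 to 0.57). In both the groups did not overlap, but neither passed the test (adjusted p = 0.582 and 0.781 from edgeR's test).

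The forkhead members act in periocular and skull mesenchyme, and human FOXC1 is mutated in a malformation of the anterior eye. FOXC1 (ENSDARG00000091481, listed with no paralog letter) had 28.6 and 29.4 CPM in controls and 17.6 and 12.3 CPM in NRas+. As with HIC1, the controls were nearly equal after TMM scaling. Its log2 fold change was -0.96 (SE 0.41, 95% interval -1.82 to -0.09, adjusted p = 0.38 from edgeR's test). The paralog foxc1b (ENSDARG00000055398) had 15.0 and 27.4 CPM in controls and 5.81 and 10.0 CPM in NRas+, and its log2 fold change of -1.43 (SE 0.48, 95% interval -2.45 to -0.42) was, after that of HIC1, the largest of the set. Its adjusted p was 0.245 from the same test, and without control 2 the log2 fold change was -0.90.

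**Figure D2:**
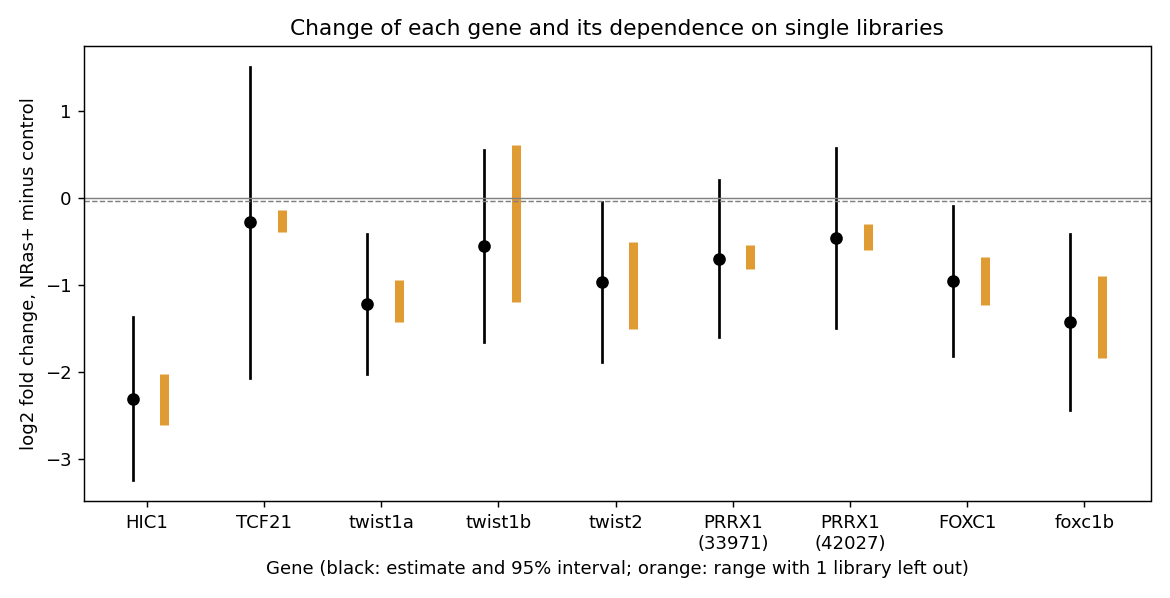
Log2 fold change (NRas+ minus control) of each of the 9 genes with its 95% interval in black, and in orange the range of the value with 1 library left out; the dashed line is the median of all genes tested. The estimates ran from -2.31 for HIC1 to -0.28 for TCF21, and the orange range crossed 0 for twist1b.

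The members of paralog pairs were next compared within each library, where scaling plays no part. The share of twist1a in the counts of twist1a and twist1b was 96.7% (Wilson 95% interval 96.2 to 97.1) in control 1, 86.4% (85.7 to 87.0) in control 2, 83.9% (82.7 to 85.0) in NRas+ 1 and 91.9% (91.0 to 92.8) in NRas+ 2. The controls differed from each other by more than the means of the conditions, which were 91.5% and 87.9%. For PRRX1, the first gene held 59.3% (control 1), 68.2% (control 2), 55.5% (NRas+ 1) and 64.7% (NRas+ 2) of the pair's counts. FOXC1 held 65.6% (control 1) and 51.8% (control 2) of the reads on FOXC1 plus foxc1b, and 75.2% and 55.1% in NRas+. In both of these pairs the libraries numbered 1 stood closer to each other than to the libraries numbered 2 of their own condition. The conditions overlapped in each pair (two-sided exact permutation p = 0.667 for each of 3 pairs, where 2 libraries against 2 cannot go below 0.333), a test that takes no account of replicate number. Between libraries of equal number, NRas+ minus control, the share moved by -3.74 and -3.44 percentage points for PRRX1, by 9.59 and 3.28 for FOXC1 and by -12.8 and 5.54 for twist1a. The sign was thus shared by both numbers for PRRX1 and FOXC1 and not for twist1a, which with 2 such differences was not tested further, and the labels do not say that equal numbers mark the same experiment. Reads of near-identical paralogs may have been assigned to either gene.

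**Figure D3:**
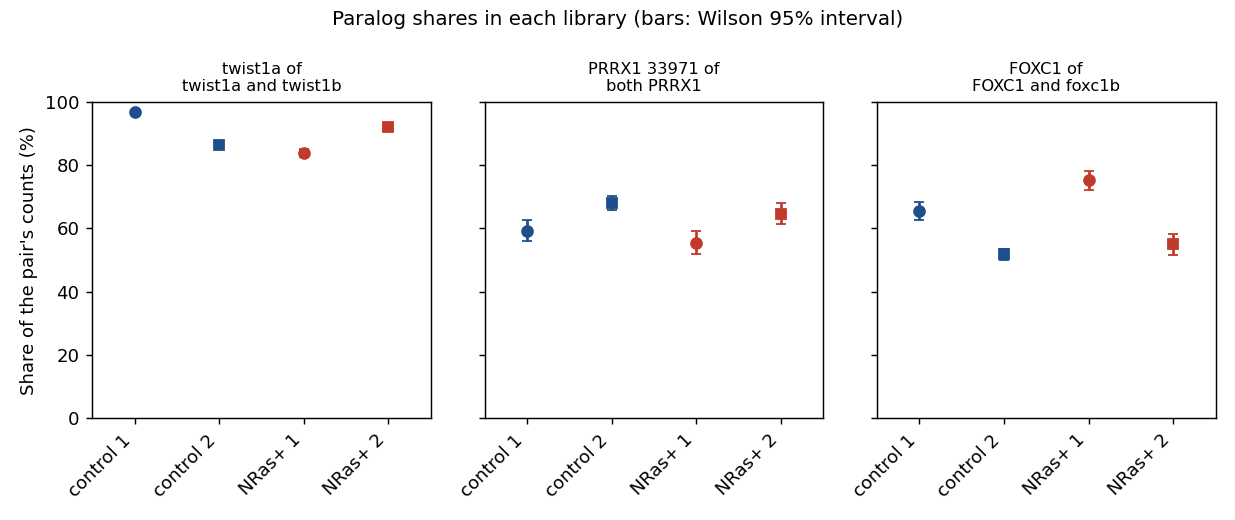
Share of the counts of a paralog pair held by the first-named gene (percent) in each control (blue) and NRas+ (red) library, with Wilson 95% intervals. The shares of FOXC1 ranged from 51.8% to 75.2% with no separation of the conditions.

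The genes through which these factors work, or which share their tissue, were described from lists. Of the other mesenchyme factors, 41 in number and all tested, none passed the threshold in edgeR's test in either direction or with DESeq2, while 8 were lower and none was higher at an unadjusted p under 0.05. Their median log2 fold change was -0.70, and in 43.9% both NRas+ libraries lay below both controls. The most abundant of them were EBF3, at 144 and 186 CPM in controls and 129 and 74.6 CPM in NRas+, the zinc finger repressor zeb2a, at 101 and 45.1 CPM against 41.9 and 26.8 CPM, and snai2, a factor of epithelial-mesenchymal transition, at 22.7 and 50.7 CPM against 68.1 and 30.3 CPM. Values of EBF3 and zeb2a were lower in both NRas+ libraries than in either control, and those of snai2 overlapped. The list of 42 neural crest and arch patterning factors, 41 of them tested, had a median of 0.05 that rested on single libraries, being 1.09 without control 2, 0.18 without control 1, 0.10 without NRas+ 1 and -0.09 without NRas+ 2, with 1 gene lower and 7 higher at an unadjusted p and none past the threshold in edgeR (1 higher with DESeq2). Of these 41 genes, 14 had both NRas+ libraries above both controls and 5 had both below, as did 20.5% and 21.8% of all genes. Its most abundant gene, the jaw joint factor NKX3-2, had 137, 121, 116 and 29.3 CPM in control 1, control 2, NRas+ 1 and NRas+ 2. The next, EYA1, had 69.3 and 37.5 CPM in controls and 85.0 and 76.6 CPM in NRas+.

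A list of 8 E protein and Id genes held tcf3a, tcf3b, TCF12, ID1, ID2, id2b, ID3 and ID4, and was not meant as complete. None of the 8 passed the threshold in edgeR (DESeq2 called 1 higher, and 1 was higher at an unadjusted p). Their median log2 fold change was -0.30 (-0.13 without control 2), with 5 below 0 and 3 above. The Id gene ID1 had 103 and 192 CPM in controls and 193 and 147 CPM in NRas+. The E protein gene TCF12 had 107 and 125 CPM in controls and 76.4 and 69.0 CPM in NRas+. The largest change of the list was that of the Id gene id2b, looked up after values had been seen. It had 25.8 and 19.4 CPM in controls and 82.1 and 64.5 CPM in NRas+. Its log2 fold change was 1.71 (SE 0.39, adjusted p = 0.07015 from edgeR's test). Of 19 genes for cofactors of Hic1 and for its targets known from mammals, 18 were tested, none passed in edgeR's test, with DESeq2 or at an unadjusted p, and the median was -0.43, which became -0.02 without control 2. The corepressor gene ctbp1 had 51.1 and 54.2 CPM in controls and 42.8 and 39.0 CPM in NRas+, and the cyclin gene CCND1 had 74.5 and 97.4 CPM against 73.7 and 55.0 CPM. A second gene listed as CTBP1 (ENSDARG00000019213) overlapped between conditions, at 18.5 and 36.4 CPM against 34.7 and 23.2 CPM.

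Structural genes of these tissues were mostly at lower levels as well. A list of 54 fibroblast receptor and matrix rows summed to 14350 CPM in control 1, 17350 in control 2, 11230 in NRas+ 1 and 6884 in NRas+ 2. Of its 52 tested genes, 44 had a log2 fold change below 0 and 15 were lower at an unadjusted p under 0.05, with a median of -0.79 and none past the threshold in edgeR's test (1 with DESeq2). Its most abundant gene, the collagen gene col1a1a, had 3308 and 3273 CPM in controls and 2718 and 1400 CPM in NRas+. Cartilage markers had a median of -1.0 over 29 tested genes, which became -0.03 without control 2, and 1 of them, SOX9, the regulator of chondrocyte fate, fell past the threshold (3 with DESeq2). Smooth muscle and pericyte markers had a median of -0.99 over 24 genes, of which 5 had a log2 fold change above 0. The contractile genes MYH11, MYLK and cald1b fell past the threshold (5 genes with DESeq2), and without NRas+ 2 the median was -1.60. The most abundant of this list, acta2, overlapped between conditions, at 1071 and 887 CPM in controls and 570 and 1143 CPM in NRas+. No gene of any of these lists was at 0 in all libraries. The calls in the cartilage and smooth muscle lists were lost without control 1, without NRas+ 1 and without NRas+ 2. The part of these tissues in the lower levels of the 9 members was not tested. Calls within these lists are a description, since the lists were chosen with earlier results of these data known.

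**Figure D4:**
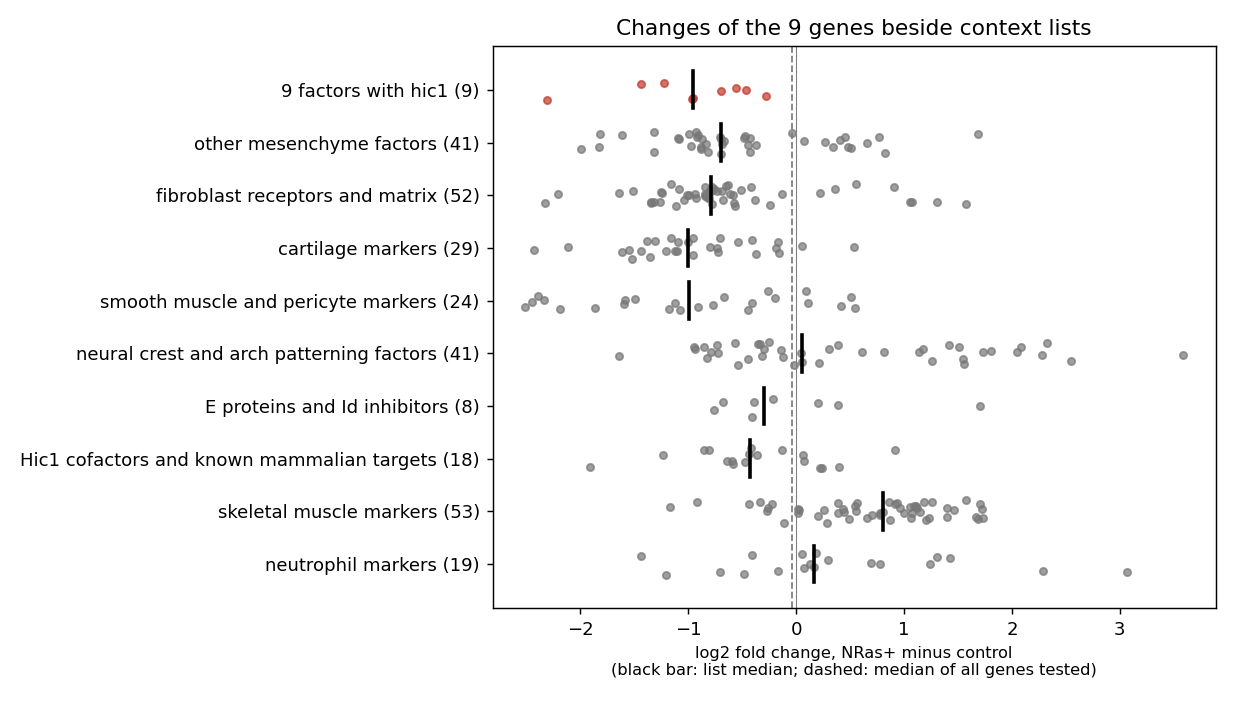
Log2 fold change (NRas+ minus control) of the 9 factors (red) and of the tested genes of 9 context lists (grey), with the number of genes tested in brackets, the list median as a black bar and the median of all genes tested as a dashed line. Among the lists drawn, which leave out epidermis and 4 others, the median was -1.0 for cartilage markers and 0.80 for skeletal muscle markers (0.48 without control 2, 1.49 without control 1), with that of the 9 factors at -0.96.

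The counts of each member were next set against those of the fibroblast list in the same library, a scale chosen after the values had been seen. On it most members overlapped between conditions. That list was itself lower in NRas+, at 11230 (NRas+ 1) and 6884 (NRas+ 2) CPM against 14350 (control 1) and 17350 (control 2). Its part in these ratios was not tested. HIC1 had 2.19 and 1.83 counts per 1000 fibroblast list counts in the control libraries, against 0.447 (NRas+ 1) and 1.12 (NRas+ 2), so it remained lower in both NRas+ libraries. It was the 1 member with both NRas+ libraries below both controls on this scale, as were 2.82% of all genes tested. HIC1 was chosen by its lower counts in these same libraries, so its place on this scale is a description only. For twist1a the values were 17.4 and 10.3 in controls and 8.17 and 13.3 in NRas+, and for FOXC1 they were 1.99 and 1.69 against 1.57 and 1.79. Both overlapped, as did twist1b, twist2, foxc1b and the PRRX1 genes. TCF21 had 0.192 and 0.137 in controls and 0.20 and 0.279 in NRas+, both NRas+ values being above the controls, as they were for 46.1% of all genes. With the collagen genes taken out, which left 43 rows, HIC1 stood at 8.45 and 7.21 in controls and 1.90 and 3.86 in NRas+. FOXC1 then also had both NRas+ libraries below both controls, as 3.62% of all genes did, at 7.68 and 6.69 against 6.68 and 6.16. TCF21 and the second PRRX1 gene had both above, as 48.2% did. That PRRX1 gene stood at 3.37 and 2.32 in controls and 3.38 and 3.72 in NRas+. Control 2 and NRas+ 1 were thus nearly level for FOXC1, as were control 1 and NRas+ 1 for that PRRX1 gene.

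**Figure D5:**
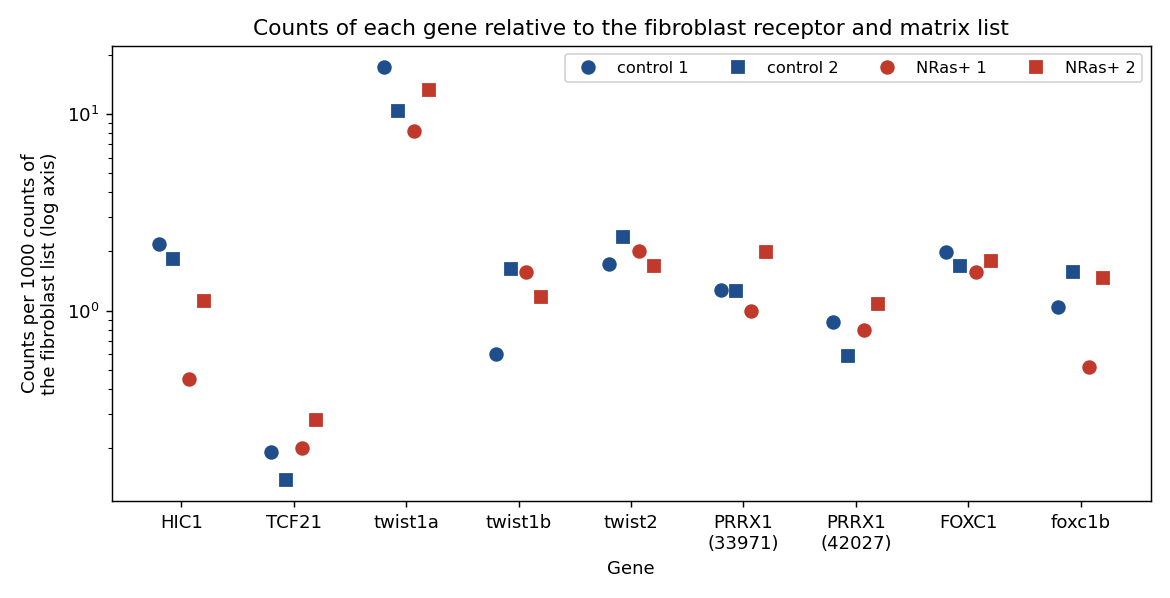
Counts of each member per 1000 counts of the fibroblast receptor and matrix list (log axis) in each control (blue) and NRas+ (red) library. HIC1 stood at 2.19 and 1.83 in controls and 0.447 and 1.12 in NRas+, while the values of 7 of the other 8 members overlapped between conditions.

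Within the set, the proportion of HIC1 separated by condition and that of twist1a did not. Because HIC1 was chosen by its lower counts in NRas+, its share is a description only. The intervals cover counting error only. HIC1 took 8.04% (Wilson 95% interval 7.53 to 8.57) and 8.56% (8.18 to 8.95) of the counts on the 9 genes in the controls, and 2.75% (2.38 to 3.17) and 4.69% (4.19 to 5.24) in NRas+ 1 and NRas+ 2. The share of twist1a was 63.8% and 48.1% in the controls and 50.3% and 55.8% in NRas+, with overlap. All 9 together summed to 391.8 and 370.2 CPM in the controls and 183 and 164 CPM in NRas+. Without HIC1 the other 8 summed to 360.3 and 339 CPM in controls and 178 and 157 CPM in NRas+. The lower sum thus did not rest on HIC1, but twist1a made up much of it. With twist1a left out as well, the sums were 110.5 and 160.4 CPM in controls and 85.8 and 64.9 CPM in NRas+.

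The genes whose course over the 4 libraries was most like that of HIC1 were ranked by the root mean square difference of log2 CPM, each gene centred on its own mean, among 12501 named genes with a mean log2 CPM of at least 1. The nearest was TRAF3IP1, a component of ciliary transport, with a difference of 0.0929 and 17.3, 18.7, 2.74 and 4.94 CPM in control 1, control 2, NRas+ 1 and NRas+ 2. It was followed by the collagen gene col7a1l (0.106), STUM (0.117), PAPPA (0.151), a metalloproteinase that frees insulin-like growth factors from their binding proteins, and adamts12 (0.174), a secreted metalloproteinase. PAPPA had 35.2 and 27.9 CPM in controls and 4.83 and 8.70 CPM in NRas+. Of the other members foxc1b was nearest to HIC1, at 0.56 with 273 genes nearer, and twist1b was farthest, at 1.3 with 7003 genes nearer. With 4 libraries in 2 conditions, such likeness describes these libraries only.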

How the data were processed

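The authors mapped reads to danRer10 with STAR 2.4.2a and summed them over Ensembl genes in featureCounts. The deposited table holds raw counts for 2 control and 2 NRas+ libraries, each library in its own column. The study reports more biological replicates than the 2 libraries per condition in this table. Labels name a reverse strand, but the counting settings do not settle whether strand was used, so overlapping and antisense genes are uncertain. The study describes independent experiments, each with a separate pool of larvae for each condition, though it also calls the replicates technical. Labels do not tie replicate numbers to experiments, and p-values measure the spread between these libraries. Libraries of a condition differed beyond counting noise.

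Symbols were paired with 26121 of 31952 genes. Genes were filtered with filterByExpr (20099 kept), TMM scaled and tested with edgeR 4.0.16 (glmQLFit with legacy = FALSE) in R 4.3.3. Benjamini-Hochberg adjustment was made over genes tested, and the test was checked on simulated data. In that check, 150 of 200 genes given a log2 change of 3 were recovered, with 3 false calls. DESeq2 1.42.0, other scalings, filters and tests, a replicate block and leaving out each library were alternatives. Members and lists were chosen with earlier results of these data known. Named were all members, genes of a list past the threshold, the 3 most abundant of a list (in the text, some of these) and the 5 nearest HIC1. Values of hic1l, HIC2, twist3 and id2b, and ratios to the fibroblast list, were added after values were seen. Log2 CPM for likeness used a prior count of 2.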

Additional observations from a re-analysis of the deposited data

How the results depend on the processing

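The numbers of genes called higher, genes called lower and members called lower were 26, 8 and 1. They were 233, 146 and 1 with DESeq2, 137, 93 and 1 by likelihood ratio, 88, 64 and 1 for genes of 10 or more counts per library, 10, 0 and 0 with the legacy quasi-likelihood fit, and 19, 2 and 0 with no filter. RLE scaling gave 27, 7 and 1, whereas TMM computed with muscle genes removed gave 38, 9 and 1. Chosen after seeing the data, library totals gave 9, 14 and 0, and an unadjusted p 1040, 1233 and 5. With 1 library left out, the lone library of a condition being assumed to vary like the others, genes higher ranged from 6 to 88, genes lower from 0 to 262 and members lower from 0 to 2. The highest of each came without control 2, where twist1a passed besides HIC1, and no gene was lower without any of the other 3. The cause was not tested.

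Blocking on replicate number, these counts were 7, 0 and 0, and HIC1 had a log2 fold change of -2.33. The study ran both conditions in each experiment, but no label says that equal numbers mark the same experiment. Over the genes tested, differences between replicates 1 and 2 correlated by 0.147 between conditions, from 2 pairs of libraries. HIC1 kept its direction in all 13 alternatives and lost the call in 7. Of the other members, twist1b alone changed sign (0.60 without control 2, -1.20 without NRas+ 1). Of 72 CPM values of members rescaled by RLE or TMM without muscle, 9 moved by more than 1 SD. Of 182 recomputed list medians 53 moved, and of 196 counts within lists 50 did. TCF21, with 73 to 130 counts per library, limits what depth can show.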
